A study of Homo sapiens with 8 samples.

Results

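PC3 is an androgen-independent human prostate cancer line that was established from a bone metastasis. Its response to depletion of DNA-PK by small interfering RNA (siRNA) was read on 2 of the 8 arrays of the series, which were taken by their sample labels. On 1 of them the cells had been transfected with a non-targeting siRNA and on the other with an siRNA against DNAPK. Both cultures were grown in RPMI1640 and harvested after 48 hours, and 400 ng of TRIZOL-extracted total RNA was labelled with an Affymetrix whole-transcript kit. The other 6 arrays hold the same pair of treatments in C4-2B (also in RPMI1640), DU145 and VCaP (both in DMEM). They are used here only to show how far such a difference spreads between lines. The labels give 1 siRNA name for the treated PC3 culture and no replicate culture, so the effect of the siRNA and any other difference between the cultures cannot be told apart, and no p-value is given. All values are log2 signals, a difference is DNAPK siRNA minus non-targeting siRNA, and a difference of 1 is a 2-fold change. RNA was extracted from whole cultures, so fewer cells of one state and less RNA per cell cannot be told apart either.

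DNA-PK is a kinase made of the Ku heterodimer, which grips broken DNA ends, and a large catalytic subunit encoded by PRKDC. It joins double-strand breaks by non-homologous end joining, and in prostate cancer it has also been linked to transcription and to metastasis. The title of the series names Wnt signalling as the pathway of interest. Interferons, whose target genes supplied many of the rises in PC3, are secreted proteins whose receptors signal through JAK kinases to a transcription factor complex that holds IRF9. That complex binds the interferon-stimulated response element in the promoters of antiviral genes.

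The control array was first set against genes known for PC3. STAT3 and CTNNA1, both known to be deleted in this line, read 2.33 and 3.13, against at least 7.02 and 7.0 in the other controls. KLK3, which encodes prostate-specific antigen, read 3.68. MET read 10.11, ITGA2 10.06, AXL 8.88, CAV1 8.56, EGFR 8.52 and VIM 7.82, as known for this invasive, mesenchymal-leaning line. HOXB13 had been listed as low in PC3 but read 8.0, close to 7.43 in C4-2B and 7.45 in VCaP. TMPRSS2 had been listed as low too but read 6.72, between 2.18 in DU145 and 9.03 in VCaP. KRT8, KRT18 and S100A4 had been listed as expressed and read 4.36, 5.20 and 3.62.

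PRKDC, the target of the siRNA, read 9.17 with the non-targeting siRNA and 7.17 with the DNAPK siRNA. It fell by 1.99, which leaves 25.1% of the control signal, and ranked 3 from the bottom among 16796 genes above the filter on low signal. PRKDC differed by -2.53 (C4-2B), -1.08 (DU145) and -0.62 (VCaP). Its partners in end joining were measured on the same arrays. XRCC6 and XRCC5, which encode the Ku proteins, differed by -0.16 and -0.04, and LIG4, the ligase that seals the break, read 5.53 and 6.21, higher by 0.68. The 16 end joining genes had a median of 0.08, none was past 1, and the 18 other PI3K-like kinases and checkpoint partners had a median of 0.01 with none past 0.5.

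Over all 16796 genes the median difference in PC3 was 0.04 and the standard deviation across genes was 0.33 (C4-2B 0.29, DU145 0.33, VCaP 0.46). In PC3, 89 genes were higher by at least 1 (0.53%) and 91 were lower by at least 1 (0.542%), together 1.07%. Of these, 66 and 50 encode proteins. The share past 1 depended on the signal, at 1.60% of the genes whose mean over the PC3 pair was 3 to 5 and 0.297% of those above 8. The lower array lay at or below the filter level of 2.51 in 17 of the rises and 29 of the falls. The mean of the pair was above 5 for 31 of the rises and 25 of the falls. The difference in PC3 lay outside the range of the other 3 lines for 87 of the rises and 80 of the falls, together 0.994% of all genes. Of all genes whatever their size 23.8% lay above and 22.9% below the other lines, and since genes past 1 were picked for a large value in PC3, nothing is read from these counts. In all other lines 35 of the rises and 29 of the falls stayed within 0.5 of 0. The share of all genes that did so was not counted, so nothing is read from these numbers either.

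**Figure D1:**
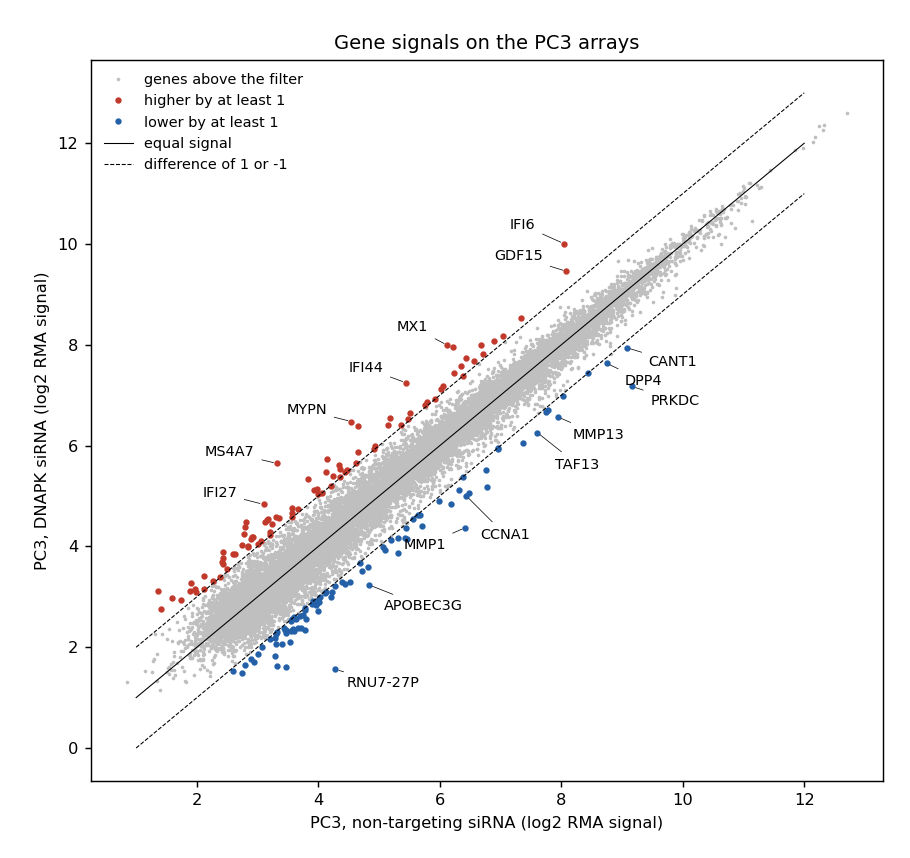
Each point is a gene above the filter, with its log2 signal on the non-targeting array on the horizontal axis and on the DNAPK siRNA array on the vertical axis. Dashed lines mark a difference of 1 in either direction, red points are the 89 genes at or above it and blue points the 91 at or below it, with PRKDC among the brightest of the falls.

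Antiviral effectors induced by interferon supplied more of the rises than any other list. Of 53 listed genes 50 were on the table and 46 lay above the filter. In PC3, 40 of these were above 0, 27 were higher by at least 0.5 (6.08% of all genes were) and 12 were higher by at least 1, with a median of 0.62, against 55.5% of all genes above 0 and a median of 0.04. The same 46 genes had medians of -0.06 (C4-2B), -0.11 (DU145) and -0.08 (VCaP). The value in PC3 was the highest of the 4 lines for 31 of the 46, where 23.8% of all genes had their highest value in PC3.

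IFI6, which encodes a small mitochondrial and endoplasmic reticulum protein that blocks viral replication and apoptosis, read 8.05 and then 10.01, a rise of 1.96. MX1, a dynamin-like GTPase that traps viral nucleocapsids, read 6.12 and then 7.99, a rise of 1.87. IFI44 read 5.45 and then 7.25, a rise of 1.80. IFITM1, a membrane protein that hinders the entry of enveloped viruses, went from 6.22 to 7.96, a rise of 1.74. IFI27 went from 3.10 to 4.83 and also rose by 1.74. None of these genes differed by more than 0.4 upward in any other line, and IFI6 read -0.32 (C4-2B), -0.88 (DU145) and -0.22 (VCaP). All of them were above the filter level on both PC3 arrays.

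The oligoadenylate synthetases make the second messenger that activates RNase L. OAS2 read 6.67 and 8.0, a rise of 1.33. OAS1 rose by 1.21, from 6.24 to 7.45. OAS3 rose by 1.18, from 6.89 to 8.07, while their inactive relative OASL was higher by 0.83. IFI44L (1.11), the helicase DDX60 (1.06), the nuclear body protein SP110 (1.02) and DDX60L (1.01) complete the rises past 1. Just under that mark were SAMD9 (0.98), a restriction factor of poxviruses, and PLSCR1 (0.86), a phospholipid scramblase. Genes of the IFIT family, which bind foreign RNA ends, were uneven, with IFIT1 at 0.75, IFIT5 at 0.61, IFIT3 at 0.55 and IFIT2 at -0.11.

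Below 0 were 6 of the 46, so the group did not move as a whole. GBP1, GBP2 and GBP4, guanylate-binding proteins, had -0.38, -0.44 and -0.01. LGALS9, which encodes galectin-9, had -0.74. APOBEC3G, a cytidine deaminase that edits retroviral DNA, read 4.84 and then 3.23 and fell by 1.60, the only fall past 1 in the list. Its relative APOBEC3F read 3.52 on both arrays, and since these genes share much sequence their signals are uncertain.

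**Figure D2:**
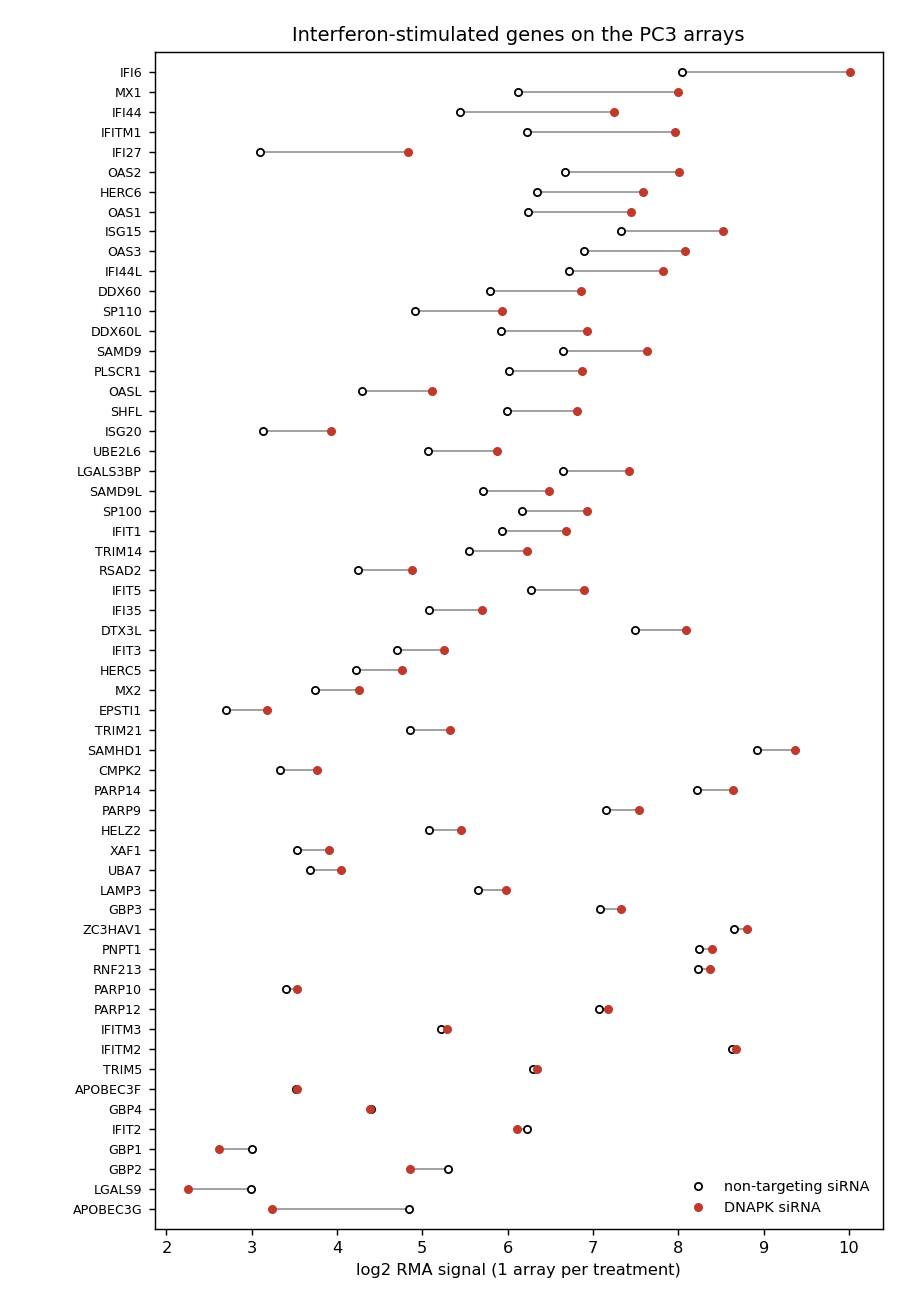
Log2 signals of the 46 antiviral genes and 12 genes of ISG15 conjugation above the filter on the PC3 arrays, with open circles for the non-targeting and red circles for the DNAPK siRNA. Of the 58 genes 52 lie to the right of their control, from IFI6 at the top to APOBEC3G at the bottom, which went from 4.84 to 3.23.

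ISG15 is a ubiquitin-like protein that interferon-treated cells attach to other proteins. Its gene read 7.33 and then 8.53, a rise of 1.19. HERC6, a relative of the ISG15 ligase, read 6.34 and 7.59, a rise of 1.24. The ISG15-conjugating enzyme UBE2L6 was higher by 0.80, the ligase HERC5 by 0.54 and the activating enzyme UBA7 by 0.36. DTX3L and PARP9, which act as a pair on ADP-ribosylation, were higher by 0.60 and 0.39. All 12 members of this group were above 0, with a median of 0.45, and 10 of them had their highest value in PC3. Of all genes 55.5% were above 0 and 23.8% had their highest value in PC3. Medians in the other lines were -0.03, -0.12 and 0.11. Together the 2 groups make up 14 of the 89 genes that rose by at least 1. Their 58 genes had a median signal of 5.86 on the PC3 control array, and of 3.76 (C4-2B), 4.89 (DU145) and 3.80 (VCaP) on the other controls.

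The steps ahead of these effectors were less uniform. Among the interferon genes themselves, IFNE, an interferon of epithelia, gave the most signal in PC3 and read 5.53 and 5.63. IFNB1 read 1.62 and 1.61, under the filter, as did 6 other ligand genes, among which IFNA1 read 1.07 and 2.35. Over the 10 ligand and receptor genes above the filter the median was -0.05, and the receptor genes IFNAR1 and IFNAR2 differed by -0.05 and -0.07. Among the sensors, IFI16, which detects nuclear and cytosolic DNA, read 5.15 and 6.42 and rose by 1.27. The RNA sensors RIGI and IFIH1 were higher by 0.81 and 0.78, and the RNA-activated kinase EIF2AK2 by 0.74. The DNA sensor CGAS read 5.74 and 5.15, lower by 0.59, and its adaptor STING1 read 4.57 on both arrays. The 16 sensor genes had a median of 0.16, with 1 past 1.

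Of the 14 genes for JAK kinases, STAT3, interferon regulatory factors and their feedback proteins, 11 were above 0 and 3 rose past 1. Among all genes 55.5% were above 0 and 0.53% rose past 1. One of the 11 is STAT3, which read 2.33 and 2.75 in PC3 and passed the filter only through the other lines. IRF7, the factor that amplifies interferon transcription, rose by 1.21, from 4.66 to 5.87. IRF9, the DNA-binding part of the interferon-activated complex, went from 6.02 to 7.13, a rise of 1.11. A second, dimmer probe set for IRF9 gave -0.07, and the mean of both gave 0.52. USP18, which removes ISG15 and damps the receptor, rose by 1.05, from 5.76 to 6.81. IRF1, a factor induced chiefly by interferon gamma, had -0.17 and the kinase JAK2 -0.46.

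The promoters of IFI6, IFI44, IFITM1 and IFI27 are shown because they carry the motif that the interferon complex reads. That of MX1, another of the leading genes, is not shown. The sequences are the 200 bases before a RefSeq transcription start (GRCh38.p14), on the strand of the gene, with matches to the core of the interferon-stimulated response element in capitals. The core was taken as GAAA, 2 bases of any kind and GAAA, on either strand, so that a match on the other strand reads TTTC, 2 bases and TTTC. They cover chr1:27672193-27672392 on the minus strand for IFI6, chr1:78649589-78649788 on the plus strand for IFI44, chr11:313840-314039 on the plus strand for IFITM1 and chr14:94110536-94110735 on the plus strand for IFI27.
IFI6: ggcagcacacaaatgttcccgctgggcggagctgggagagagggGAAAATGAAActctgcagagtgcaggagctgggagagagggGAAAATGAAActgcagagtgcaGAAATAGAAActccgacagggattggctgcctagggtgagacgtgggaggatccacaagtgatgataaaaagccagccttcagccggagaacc
IFI44: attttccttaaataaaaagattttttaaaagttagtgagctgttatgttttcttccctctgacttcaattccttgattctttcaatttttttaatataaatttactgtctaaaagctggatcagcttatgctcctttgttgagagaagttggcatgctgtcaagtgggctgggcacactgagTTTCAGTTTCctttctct
IFITM1: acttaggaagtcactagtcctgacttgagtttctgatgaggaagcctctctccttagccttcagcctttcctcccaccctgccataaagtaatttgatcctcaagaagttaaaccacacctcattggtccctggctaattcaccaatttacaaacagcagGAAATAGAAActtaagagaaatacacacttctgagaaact
IFI27: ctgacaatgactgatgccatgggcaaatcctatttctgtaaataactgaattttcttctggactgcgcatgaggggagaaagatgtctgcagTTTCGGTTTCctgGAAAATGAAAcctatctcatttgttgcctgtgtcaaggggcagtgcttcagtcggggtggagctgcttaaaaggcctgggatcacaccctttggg
IFI6 holds 3 matches, which begin 156, 115 and 93 bases before the start, and IFI27 holds 2, at 108 and 95. IFITM1 holds 1 at 40 and IFI44 1 at 18, where for IFI44 and IFI27 1 of 2 starts of the table is shown.

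In windows from 250 bases before to 50 after each start, read on both strands, the motif was found for 26 of the 37 antiviral genes with a promoter in the table (70.3%). It was found for 4.38% of all 27305 genes of the table and for 3.90% of the 12449 genes above the filter. The median difference of the antiviral genes was 0.79 with a match and 0.44 without one. For the ISG15 conjugation genes the order was the opposite, at 0.47 for the 7 of 10 with a match and 0.80 for the others. Of the 59 genes with a promoter that were higher by at least 1, 18 held it (30.5%), and of the 45 that were lower by at least 1, 1 held it (2.22%), namely TAF13. Among those 18 rises, 8 are on none of the interferon, antigen presentation or NF-kB lists. They include the cytokine gene IL24 (1.67), the butyrophilin gene BTN3A3 (1.03), the kinase gene MAP2K2 (1.09) and the G-protein subunit gene GNG11 (1.03), named after their values were seen and all read below 4 on the control array. Another is the fatty acid hydroxylase gene CYP4F11 (1.37), which read 1.90 and 3.27 in PC3, below the filter level on the control array, and passed the filter through the other lines. A match is a description of the sequence and does not show that a factor was bound.

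Antigen presentation and inflammatory genes had medians closer to that of all genes. Of 20 genes for MHC class I presentation 15 were above 0 (55.5% of all genes were), with a median of 0.16 and none past 1. The medians of the other lines ran from -0.04 to 0.19. The peptide transporter TAP1 read 5.42 and 5.98, higher by 0.56, and the light chain B2M read 8.72 and 9.08, higher by 0.36. The response element core was found for 11 of 18 class I genes with a promoter (61.1%). Genes of MHC class II had a median of -0.06, with the invariant chain CD74 at -0.59. The 28 NF-kB and cytokine genes had a median of 0.10, 3 at or above 0.5 and 3 at or below -0.5. NFKBIE, an inhibitor of NF-kB, had 0.58, the cytokine IL11 0.57 and the chemokine CXCL10 0.52, though CXCL10 read only 2.68 and 3.20. The regulator NFKBIZ had -0.72 and the neutrophil chemokine CXCL1, at 7.0 and 6.41, had -0.60. The chemokine CCL2, at a dim 2.81 and 2.29, had -0.53.

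**Figure D3:**
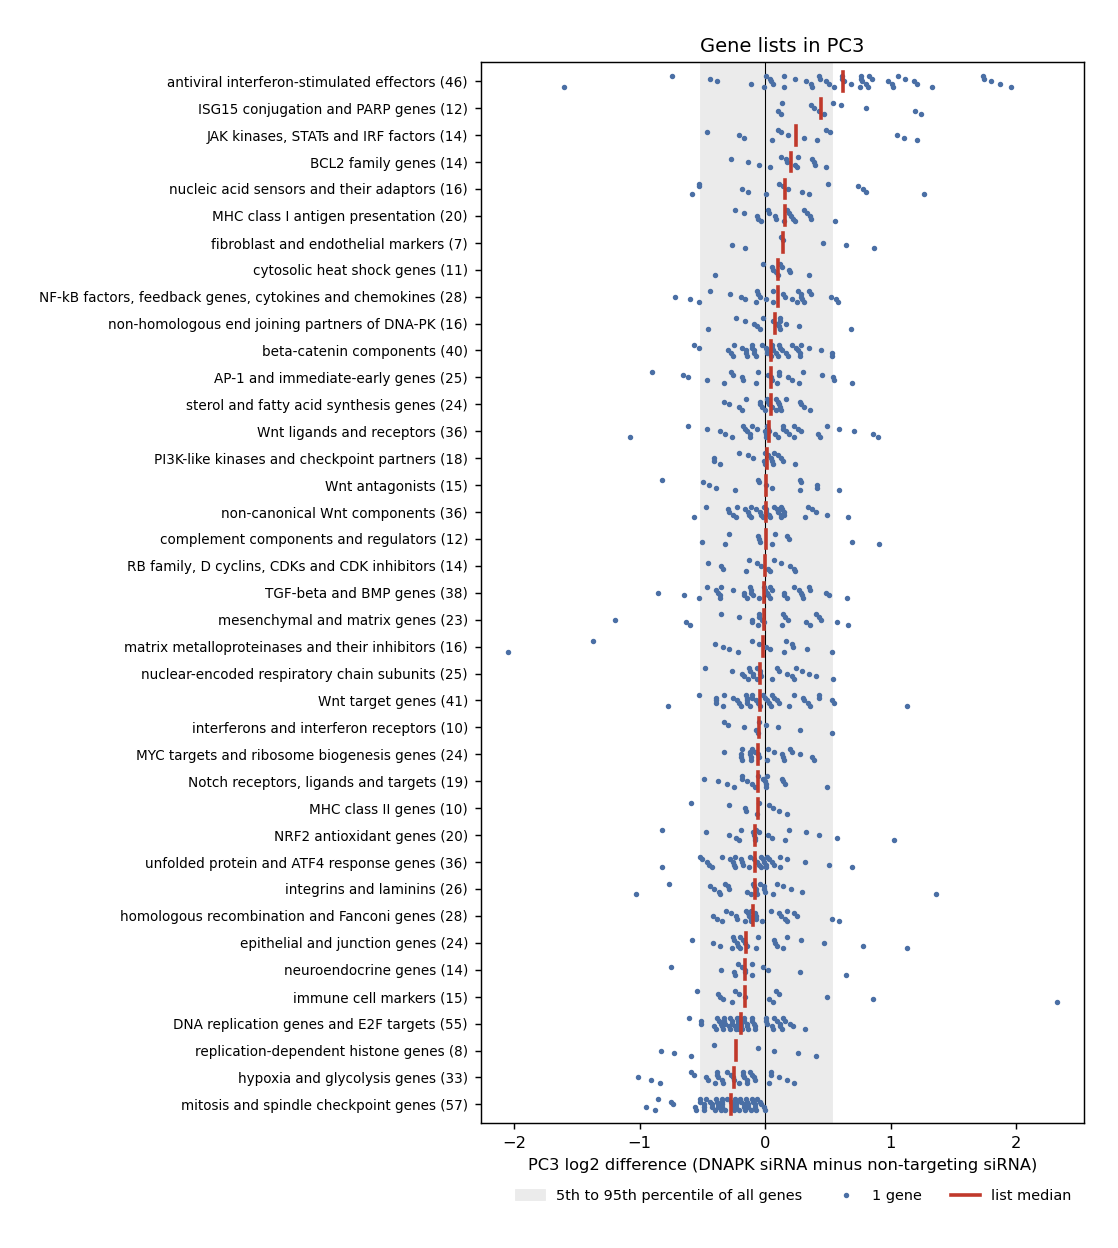
Differences in PC3 for the members above the filter of gene lists, with a point for each gene and a red bar for the list median, ordered by median. The grey band spans -0.51 to 0.54, the 5th to 95th percentile of all genes, and the antiviral list is the only one shown whose median (0.62) lies outside it.

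Genes of mitosis and the spindle checkpoint were lower together, each by a small amount. All 57 above the filter were below 0, where 44.4% of all genes were, with a median of -0.27 (a 1.21-fold decrease). None was past 1, and 9 were lower by at least 0.5, where 5.22% of all genes were. In the other lines 25 (C4-2B), 55 (DU145) and 10 (VCaP) of the 57 were above 0, with medians of -0.05, 0.42 and -0.20. PC3 gave the lowest of the 4 values for 28 of the 57, against 22.9% of all genes.

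KIF20B, a kinesin of cytokinesis, read 8.06 and then 7.11, lower by 0.95. ESPL1, the protease separase that releases sister chromatids, had -0.87, and SPC24, a kinetochore protein, had -0.85. BUB3, a checkpoint protein, read 8.91 and 8.17, lower by 0.75, but it had the same difference in C4-2B (-0.75). CDK1, the kinase that drives entry into mitosis, read 9.05 and 8.50, lower by 0.55, and its cyclins CCNA2 and CCNB1 were lower by 0.52 each. The kinase PLK1 read 8.52 and 8.29, lower by 0.23, and CDC20, an activator of the anaphase-promoting complex, had -0.38. At the other end CKS1B, which binds CDK1, read 6.68 on both arrays, and the survivin gene BIRC5 had -0.04.

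The cell cycle homology region TTTGAA is a promoter element of genes that peak before mitosis. It is shown in capitals in the 200 bases before the starts of PLK1 (chr16:23678689-23678888) and CDC20 (chr1:43358781-43358980), both on the plus strand, from RefSeq (GRCh38.p14).
PLK1: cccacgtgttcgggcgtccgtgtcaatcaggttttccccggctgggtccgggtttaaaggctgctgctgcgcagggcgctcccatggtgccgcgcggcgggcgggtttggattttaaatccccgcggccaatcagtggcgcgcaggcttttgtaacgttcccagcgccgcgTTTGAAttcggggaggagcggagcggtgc
CDC20: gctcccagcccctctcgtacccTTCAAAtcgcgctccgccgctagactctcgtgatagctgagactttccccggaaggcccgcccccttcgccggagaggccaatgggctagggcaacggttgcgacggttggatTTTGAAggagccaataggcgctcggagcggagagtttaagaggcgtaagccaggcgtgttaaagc
The match of PLK1 begins 29 bases before the start, and those of CDC20 begin 178 and 65 before it, the first of them on the other strand. On either strand of the same windows TTTGAA was found for 36 of 50 mitosis genes with a promoter (72.0%) and for 4 of 47 replication genes (8.51%). It was held by 18.2% of all genes with a promoter and by 13.8% of those above the filter. The mitosis genes with it had a median of -0.34 and those without it -0.20.

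Genes of DNA replication and other E2F targets followed at a smaller size. Of 55 genes 40 were below 0, where 44.4% of all genes were, with a median of -0.19. None was past 1, and 3 were lower by at least 0.5, a share like the 5.22% of all genes. Medians in the other lines were 0.15, 0.45 and 0.10, and PC3 had the lowest value for 33 of the 55, against 22.9% of all genes. E2F2, an activator of S-phase genes, had -0.61 at a dim 4.60 and 3.99. RRM2, a subunit of ribonucleotide reductase, read 7.78 and 7.27, lower by 0.51, and the thymidylate synthase TYMS read 9.12 and 8.71, lower by 0.41. The licensing factor CDT1 had -0.39, and the 6 genes of the MCM2-7 helicase lay between -0.28 and -0.21. E2F1 had 0.32 and the cyclin CCNE1 0.20. The 14 genes for RB proteins, D cyclins, CDKs and their inhibitors had a median of -0.00, with CDKN1A, an inhibitor of CDKs, at -0.06. The 28 genes of homologous recombination and the Fanconi pathway had -0.10.

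**Figure D4:**
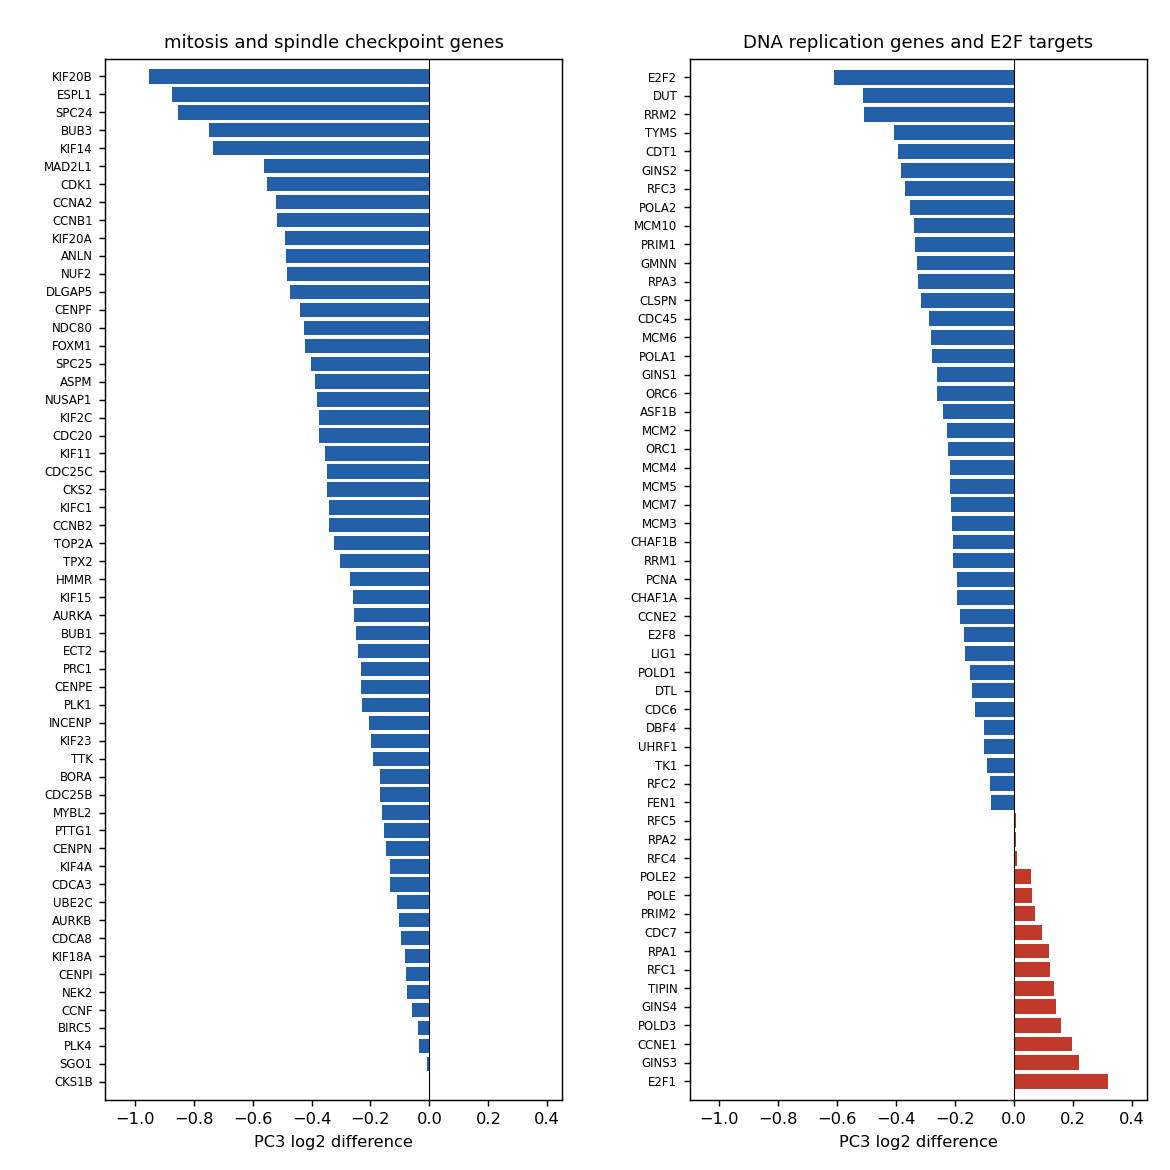
Log2 differences in PC3 of the 57 mitosis genes and the 55 replication and E2F genes above the filter, as bars from 0 that are blue below it and red above it. No mitosis gene is above 0, while 15 replication genes are, up to E2F1 at 0.32.

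Hypoxia and glycolysis genes were also lower. Of 33 above the filter 27 were below 0 (44.4% of all genes were), with a median of -0.24. PC3 had the lowest value for 23, against 22.9% of all genes. The other lines had -0.04, 0.05 and, in VCaP, 0.95. NDRG1, a stress-responsive gene that is often used as a hypoxia marker, read 6.96 and 5.95 and fell by 1.01, the only member past 1. PDK1, which keeps pyruvate out of the mitochondria, read 7.91 and 6.99, lower by 0.91. PGAM1, a glycolytic mutase, had -0.84, HK2, the inducible hexokinase, -0.59, and ANKRD37 -0.57. VEGFA, the angiogenic growth factor, had -0.12, and the pyruvate kinase PKM, at 10.35 and 10.58, had 0.23. Genes of the respiratory chain had a median of -0.04.

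**Figure D5:**
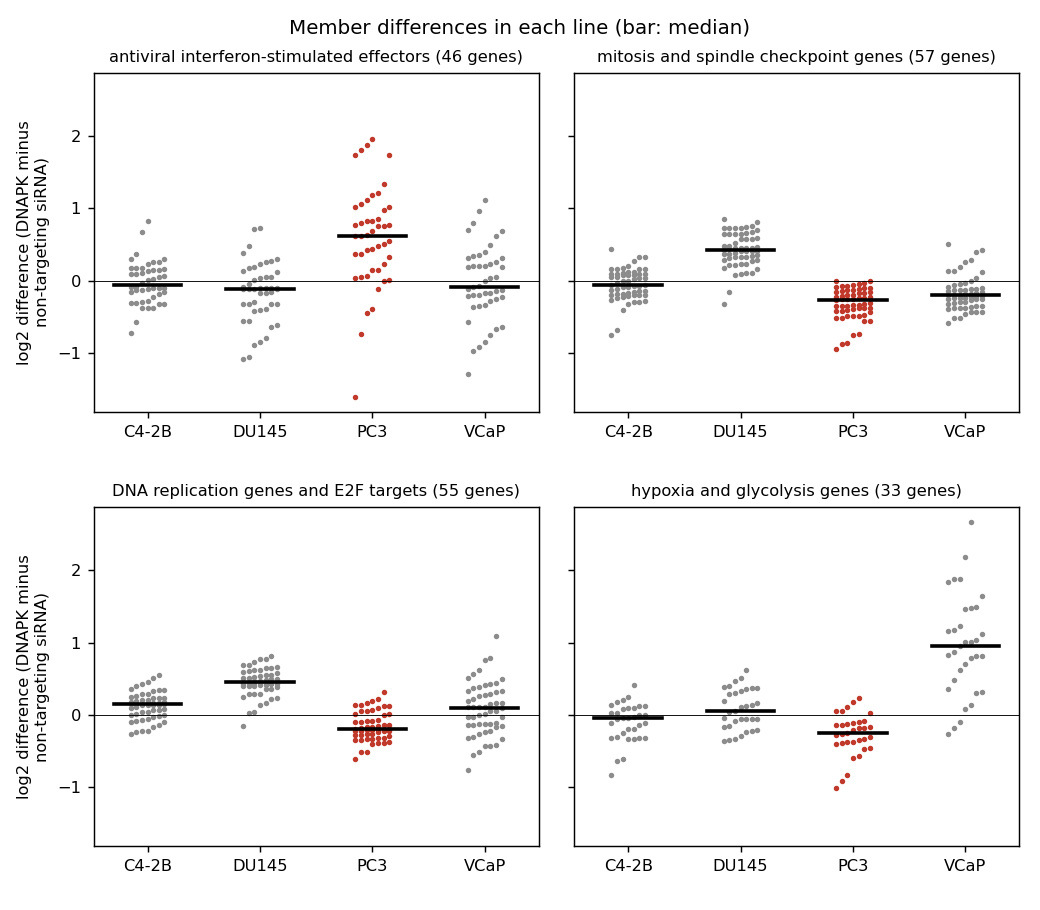
Differences of the members of 4 lists in each line, with PC3 in red and a black bar at the median. The antiviral median is 0.62 in PC3 and between -0.11 and -0.06 elsewhere, while the mitosis and replication medians are highest in DU145 (0.42 and 0.45) and the hypoxia median in VCaP (0.95).

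Proteases and matrix genes gave some of the largest single falls without a shift of their lists. MMP1, the interstitial collagenase, read 6.42 and then 4.37 and fell by 2.05, while it had 1.27 in DU145, from a control of 2.54. MMP13, the other main collagenase, read 7.94 and then 6.57 and fell by 1.37, with -0.03, 0.03 and 0.11 in the other lines. Their controls were dimmer, at 3.80 (C4-2B), 2.65 (DU145) and 2.34 (VCaP), so a fall had little room to show in DU145 and VCaP. MMP14, the membrane-bound protease that activates other members, was higher by 0.53. The 16 metalloproteinases and inhibitors had a median of -0.02. COL13A1, a transmembrane collagen, fell by 1.20, from 6.31 to 5.12. FN1, which encodes fibronectin, read 9.29 and 8.66, lower by 0.63, with -0.84, -0.48 and -0.62 in the other lines. VIM read 7.82 and 7.22, lower by 0.60. SNAI2, a transcription factor of the mesenchymal switch, had 0.43 in PC3 against -0.29, -0.88 and -1.09.

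Among adhesion genes, single members were past 1. ITGB6, the epithelial integrin subunit that activates TGF-beta, read 5.19 and then 6.54, a rise of 1.36. The other lines had 0.02, 0.04 and -0.44, at dim controls of 2.07, 2.23 and 2.41. LAMA4, a laminin chain of vessel walls, fell by 1.03, from 4.11 to 3.08. ITGA6, a laminin receptor, read 9.89 and 9.13, lower by 0.76. Of 26 integrin and laminin genes 20 were below 0 (44.4% of all genes were), with a median of -0.08. The other lines had medians of -0.09 (C4-2B), -0.14 (DU145) and -0.14 (VCaP), so PC3 did not stand apart. CLDN1, a tight junction protein that is also listed as a Wnt target, read 7.04 and then 8.17, a rise of 1.13, with 0.41, -0.29 and -1.62 elsewhere. Of the 4 genes of cell migration chosen for the series, PREX1, a Rac activator, had 0.80 (4.92 and 5.72), ROCK2 0.10 and ITGB4 -0.32, and VAV3 lay below the filter at 2.56 and 2.61.

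The Wnt lists had medians near that of all genes. These were 0.03 for 36 ligands and receptors, 0.05 for 40 beta-catenin components, 0.01 for 36 non-canonical components, 0.01 for 15 antagonists and -0.04 for 41 target genes. FZD4, a frizzled receptor, read 7.78 and then 6.70 and fell by 1.08, the only ligand or receptor past 1, and it was also below 0 in C4-2B (-0.79), DU145 (-0.47) and VCaP (-0.67). FZD5 went the other way, from 4.28 to 5.18, higher by 0.90. The ligand genes WNT10A, WNT9A and WNT2B had 0.86, 0.71 and 0.59, while WNT1 had -0.62. TRABD2B, a protease that inactivates Wnt ligands, had -0.82. Among target genes CCN4 had -0.77, CD44 -0.53, JUN 0.55 and LEF1 0.53, and CLDN1 was the only one past 1. AXIN2 and LGR5, which are induced by beta-catenin in many tissues, had -0.15 and -0.14. Of the 41 target genes 18 were above 0 (55.5% of all genes were).

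Among stress and survival genes, 1 member was past 1. HMOX1, the heme oxygenase, read 4.63 and then 5.65 and rose by 1.02, while the 20 NRF2 targets had a median of -0.08. SLC7A11, the cystine carrier, read 8.02 and 7.20, lower by 0.82, and was lower in C4-2B (-1.04), DU145 (-0.45) and VCaP (-2.30) as well. ATF3 had 0.70, and the 36 genes of the unfolded protein and ATF4 responses had a median of -0.08. BCL2 family genes had a median of 0.21, with 11 of 14 above 0 (55.5% of all genes were) and none past 0.5. In the other lines 10 (C4-2B), 8 (DU145) and 6 (VCaP) of the 14 were above 0. The median of 38 genes of TGF-beta and BMP signalling was -0.01, with the BMP antagonist NOG at -0.86 and the repressor SKIL at 0.65.

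Other lists had medians of -0.23 (8 replication-dependent histone genes), -0.16 (14 neuroendocrine genes), -0.15 (24 epithelial and junction genes), -0.06 (24 MYC targets, and likewise 19 Notch genes) and 0.00 (12 complement genes). AP-1 and immediate-early genes, sterol and fatty acid synthesis genes and cytosolic heat shock genes had 0.05, 0.04 and 0.10. Among these the keratin gene KRT8 had 0.78, the histone gene H2AC14 -0.83, the splicing regulator SRRM4 -0.75 and the complement receptor C5AR1 0.91. No member of these lists was past 1 apart from CLDN1.

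Outside the lists, GDF15, a stress cytokine of the TGF-beta family, read 8.09 and then 9.46, a rise of 1.37. It rose by 1.26 in DU145 and had -1.99 in VCaP. MYPN, a sarcomere protein, read 4.55 and 6.48, a rise of 1.93. LYPD1, a GPI-anchored protein, rose by 1.75, and IL24, a cytokine of the IL-10 family, rose by 1.67, from 2.81 to 4.48. OLFM2 rose by 1.59, from 4.14 to 5.73, with 1.24 (C4-2B), -0.03 (DU145) and -0.27 (VCaP). The glycosyltransferase gene GCNT1 rose by 1.47, from 2.42 to 3.89. It lay below the filter level on the control array and passed the filter through the other lines. Dim on the control array were the zinc finger genes ZNF763 and ZNF439, which rose by 1.60 and 1.37 from 2.79 and 3.18. The odorant receptor gene OR2L8 rose by 1.50 from 3.83, and the formyl peptide receptor gene FPR3 by 1.47 from 2.78. ZNF763 had 0.45 (C4-2B), -0.15 (DU145) and 1.24 (VCaP), and FPR3 had -0.20, 0.39 and 1.12. PLAAT2 and the fatty acid receptor gene FFAR3 each rose by 1.37, from 3.15 and 3.12.

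Several falls were of genes with a signal in PC3 and less in the other controls. SEMA3D, a secreted guidance cue, read 6.48 and then 5.05, a fall of 1.43, with at most 1.89 in the other controls. CCNA1, the testis-type cyclin A, read 6.43 and 5.01 and fell by 1.43. CASP14, a caspase of skin differentiation, fell by 1.32, from 7.36 to 6.04, with at most 2.88 in the other controls. EPGN, an EGF-family ligand, fell by 1.29, from 5.71 to 4.41. STEAP4, a metalloreductase, read 6.76 and 5.52 and fell by 1.24, and it was also lower in C4-2B (-0.46), DU145 (-0.51) and VCaP (-1.05). The long non-coding RNA LINC00261 read 6.78 and 5.18 and fell by 1.60. ZNF429, a zinc finger gene that was brighter in the other controls (5.67 to 7.46), read 5.43 and 4.17 and fell by 1.26. The transcription factor gene HLF, which read 5.77 in the C4-2B control, fell by 1.33, from 6.18 to 4.85.

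Other falls past 1 sat at dim signals. OR8H3 went from 3.33 to 1.62, a fall of 1.71, with -1.85 in VCaP, and MT1E from 3.28 to 1.83, a fall of 1.45. STH fell by 1.43, IQSEC3 by 1.24, ENKD1 and GJC3 by 1.23 each and PPFIA3 by 1.21. The second probe set of IQSEC3 gave 0.12. The largest fall of all was that of RNU7-27P, a pseudogene of a small nuclear RNA, at 4.28 and then 1.56, a fall of 2.72, and RNU6-14P fell by 1.86. Among other transcripts that do not encode proteins, MIR3147 rose by 1.77, from 1.35 to 3.12. FAM66E rose by 1.40, from 1.58 to 2.98, and LINC01277 by 1.34, from 2.43 to 3.77. Each of them lay below the filter level of 2.51 on the control array, and MIR3147 and FAM66E passed the filter through the other lines.

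TAF13, which encodes part of TFIID, the complex that recognises core promoters, read 7.61 and then 6.26 and fell by 1.35. Besides PRKDC it was the only protein-coding gene that was past 1 in the same direction in PC3 and in at least 2 other lines, with -1.45 (C4-2B), -1.03 (DU145) and -0.37 (VCaP). The other 3 such genes, MIR4660, RNU6-14P and RNU7-65P, encode no protein. Counting these 5 genes too, PC3 shared 3 rises and 4 falls past 1 with C4-2B, 3 and 5 with DU145 (the 5 falls are these genes), and 4 and 9 with VCaP, while 2, 7 and 7 genes were past 1 in opposite directions. Among all 16796 genes, C4-2B had 41 rises and 57 falls past 1, DU145 51 and 137, and VCaP 216 and 406. The shared counts therefore cannot be compared directly between lines.

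The largest rise of all was in MS4A7, a gene of the MS4A family that is mostly known from macrophages, which read 3.32 and then 5.65, a rise of 2.33. It stands on a list of 28 immune cell markers on the table, of which 13 lay below the filter and 12 were under its level on both PC3 arrays. PTPRC, the common leukocyte antigen, read 1.52 and 1.65, CD3E 2.36 and 2.38, and CD163 1.69 and 1.70. The macrophage marker CD68 was the brightest of the list at 7.40 and 7.06, lower by 0.34. The 15 markers above the filter had a median of -0.16, with FCGR3A at 0.86 and the B-cell gene CD79A at -0.54. All 28 markers together had a summed linear signal of 349.7 and 345.3, to which CD68 gave the most on both arrays. Of 17 fibroblast and endothelial markers 7 lay above the filter, with ERG at 0.86 and ENG at 0.64, and none past 1. All 17 together had a summed linear signal of 156.5 and 179.4.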

How the data were processed

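The log2 signals per probe set were made by the authors, whose processing notes name oligo and RMA (background correction, quantile normalization over arrays and probe set summary) with no version, per the submitters' processing notes. The array's genome build was not given in the sources used here. The deposited table held 53617 probe sets, of which 23871 had 1 gene symbol (1842 had several and 27904 were unnamed here). Symbols were updated through Entrez identifiers for 22569. Each of 22395 genes was represented by its brightest probe set (mean of 8 arrays), and the 16796 with a mean above the 25th percentile were kept. Array medians ran from 2.94 to 2.99, and the number of arrays limits the precision. RMA removes a change shared by most genes.

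Each difference is 1 array minus 1 array, so a gene was called past 1 (2-fold) with no test. The 43 gene lists and the members were chosen with earlier results of these data known. The text names PRKDC, the 20 largest coding rises and falls and the 3 largest of other kinds. It also names the migration genes and genes past 1 in PC3 and at least 2 other lines. Of the 5 members of each list with the largest differences and of the identity genes it names only some. Other genes were named once their values were known. The counting step was tested on simulated data. Promoter sequences came from RefSeq (GRCh38.p14). R 4.3.3 with limma 3.58.1, Python 3.11.15, numpy 2.4.6, pandas 2.3.3 and matplotlib 3.10.9 were used. Alternatives were array centring, cyclic loess, loess of the PC3 pair, the mean of probe sets, other filters and leaving out each reference line.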

Additional observations from a re-analysis of the deposited data

Results flagged for a closer look

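The median difference of the antiviral interferon-stimulated genes, 0.62 in PC3, stood apart from the medians of the other 3 lines, which ran from -0.11 to -0.06. The gap to the nearest line took up 0.926 of the range over the 4 lines, more than Dixon's critical value. The list was chosen with earlier results of these data known, so this is a description and not a test. Of 42 lists examined in this way, 2 had a line that stood apart, and chance alone gives about 1 in 20. For 4 of the lists PC3 had a median of the opposite sign to all 3 other lines. These were the antiviral genes at 0.62, the DNA replication and E2F genes at -0.19 against 0.10 to 0.45, the MYC and ribosome biogenesis genes at -0.055 against 0.06 to 0.17, and the respiratory chain genes at -0.0384 against 0.0047 to 0.11. The MYC and respiratory chain medians are small, and how many lists would be opposite in sign by chance was not worked out. With 1 pair of arrays per line the difference between lines was not tested.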

How the results depend on the processing

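No paired analysis was possible because the labels give no replicate numbers and PC3 has 1 array per treatment, so leaving out a replicate was not possible either. "Moved" below means by more than the standard deviation of the other 3 lines' medians for a list or by more than 1.5 times for a count, and the cause was not tested unless stated. The 89 rises and 91 falls became 41 and 32 with only genes above the 50th percentile of mean signal, where 11197 genes remain, and 75 and 105 with loess of the PC3 pair. Signs changed only for lists with reported medians between -0.06 and 0.01 (MHC class II, complement, PI3K-like kinases, metalloproteinases, matrix, non-canonical Wnt and Wnt antagonists) and for ITGA2 and S100A4. Of the list values 282 stayed and 19 moved, and of those of named genes 987 stayed and 7 moved. The antiviral median was 0.57 with loess of the PC3 pair, 0.66 with the mean of probe sets and 0.72 above the 50th percentile (28 genes). The sensors had 0.12 with cyclic loess, 0.13 with loess of the pair and 0.32 above the 50th percentile. With loess of the pair the end joining genes had 0.0208 and the epithelial genes -0.20, which had -0.11 with the mean of probe sets. Above the 50th percentile the metalloproteinases had 0.15, the matrix genes 0.14, the integrins and laminins -0.0407, the Wnt ligands and receptors 0.11 and the fibroblast and endothelial markers 0.64 (3 genes). The immune markers had -0.0668 with the mean of probe sets, -0.0065 without a filter, -0.0914 with a filter on the PC3 pair and -0.44 above the 50th percentile (2 genes). The Notch genes had -0.0069 with the filter on the PC3 pair. The mitosis median ran from -0.30 to -0.27 with 0 of 57 above 0 in each setting. Among named genes, the mean of probe sets gave 0.52 for IRF9, -0.56 for IQSEC3 and -0.32 for CD44.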

Other observations

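Some further groups were looked at after the values of single members had been seen, so they are given as values only. Metallothioneins bind zinc and copper. In PC3, 7 of 8 above the filter were above 0 (55.5% of all genes were). MT1X read 7.17 and 7.88 (0.71) and MT2A 7.16 and 7.48 (0.33), while MT1E went from 3.28 to 1.83 (-1.45). Its members share much sequence, so signals of single genes are uncertain. Among 9 ligands of the EGF family, EREG had 0.52 and TGFA 0.39, while NRG1 had -0.51 and EPGN -1.29, and the median was -0.22.

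Cytokines and receptors of the IL-1 and IL-10 families split. IL24 and IL1RL1, the receptor of IL-33, had 1.67 and 1.34 in PC3, and 1.12 and 1.17 in DU145. IL33 itself read 6.19 and 5.21 (-0.98) and IL18 read 8.51 and 8.08 (-0.43). Of 15 TFIID genes TAF13 alone was past 1, and the other 14 lay between -0.36 and 0.44.

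Probe sets with no gene name or with several numbered 15154 above the filter, and 370 of them were higher and 397 lower by at least 1 in PC3, or 5.06%, against 1.07% of the genes.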
